A study of Hypsibius exemplaris with 24 samples.

Results

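The shift in the transcriptome of the tardigrade *Hypsibius exemplaris* 12 h after bleomycin was measured in 3 libraries of 12 h, set against 6 libraries of 6 h and 9 h taken as one group. These 9 libraries were chosen by group label out of 24 in the series. Each library came from a pool of 50 whole animals that had spent 24 h in 100 µM bleomycin dissolved in Volvic water, then were rinsed, moved to agar with the alga *Chlorella* as food and frozen 12, 6 or 9 h later. The remaining 15 libraries are pools frozen 24, 3, 1 or 0 h after the exposure and water controls, 3 of each, and they enter only to estimate the spread between replicates and to follow the transcripts of the shift over time. The controls were frozen when the exposure ended, so no unexposed pool was taken at 12 h, and time on the plates and time since bleomycin cannot be told apart in any comparison below. The pools of a group are given as biological replicates, but nothing says that they came from separate cultures, and p-values then measure the spread between these pools.

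Bleomycin is a glycopeptide antibiotic that cuts DNA, producing single- and double-strand breaks. Animals answer such breaks by holding the cell cycle and making repair proteins, and tardigrades are known for surviving doses of DNA damage that kill most other animals. In whole-animal RNA a change in the number of cells of a type and a change in RNA per cell cannot be told apart. The table gives transcript identifiers without gene names, so transcripts are described by identifier and level, and no functional group or tissue marker could be assigned to them.

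Levels are TPM, the share of a library's RNA molecules that belongs to one transcript after correction for its length, scaled to a fixed sum, for 20853 transcripts. Because every library sums to the same total, a rise of abundant transcripts lowers the TPM of all others. Values are therefore given in 2 ways, as deposited and after division by a scale factor per library that sets the median transcript equal across libraries ("scaled"). A direction in scaled TPM is relative to the median transcript, and a direction in deposited TPM is relative to all RNA. Fold changes are differences of mean log2(TPM + 1), and for weakly expressed transcripts they come out smaller than the true ratio. Across the 9 libraries 15771 to 16727 transcripts were listed above 0, and TPM carry no record of sequencing depth.

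RNA was concentrated in fewer transcripts at 12 h than at 6 h and 9 h. A low scale factor means that the median transcript holds less of a library's TPM. The scale factors of the 12 h libraries were 0.868, 0.855 and 0.664 in replicates 1, 2 and 3, against 1.00 to 1.10 (median 1.06) in the 6 h and 9 h libraries. All 3 lay below all 6, and replicate 3 was the lowest of the 9 by a wide margin. The mean difference was -0.256 (exact permutation test over 84 splits, two-sided, p = 0.0119, the smallest this design allows, adjusted p = 0.0159 over 4 measures). The 100 most abundant transcripts held 29.4%, 29.5% and 32.5% of all TPM at 12 h, against 25.5% to 28.9% (median 26.9%) at 6 h and 9 h (exact permutation test, p = 0.0119, adjusted p = 0.0159). Between 13534 and 13733 transcripts reached 1 TPM at 12 h, against 14045 to 14475 at 6 h and 9 h (exact permutation test, p = 0.0119, adjusted p = 0.0159). The number listed above 0 overlapped between the groups (exact permutation test, p = 0.0595, adjusted p = 0.0595). Without 12 h replicate 3 the groups still did not overlap in the first 3 measures. The differences were then -0.190 in scale factor, 2.53 percentage points in the share of the 100 most abundant transcripts and -629 transcripts at 1 TPM (exact permutation tests over 28 splits, each p = 0.0357, the smallest possible).

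**Figure D1:**
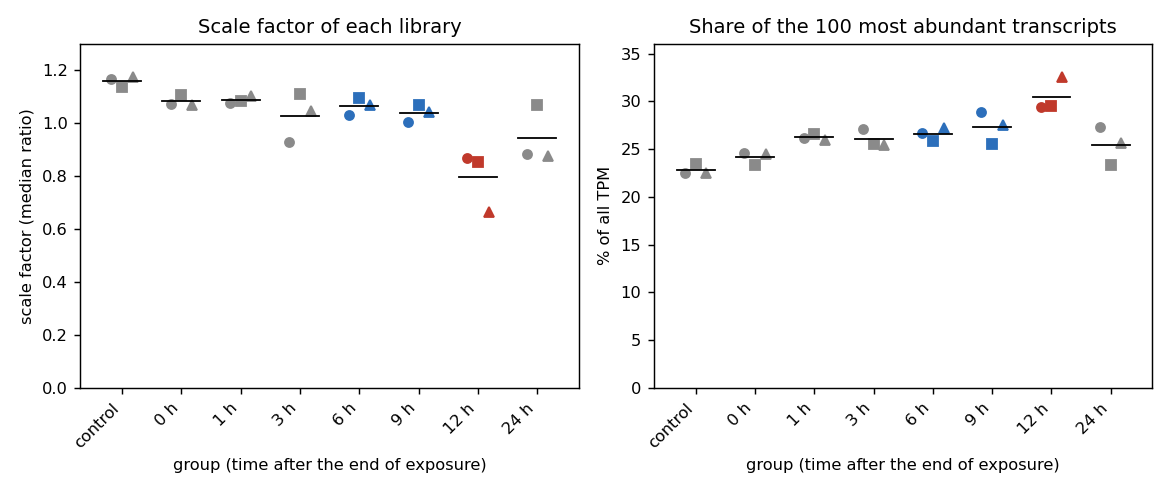
Scale factor (left) and percent of all TPM held by the 100 most abundant transcripts (right) in each library, by group in order of time. Circles, squares and triangles are replicates 1, 2 and 3, lines are group means, 12 h is red and 6 h and 9 h are blue. The 12 h libraries lie at 0.664 to 0.868 on the left and 29.4% to 32.5% on the right, outside the range of the 6 h and 9 h libraries in both.

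About 2 in 5 transcripts differed between 12 h and the earlier libraries. In scaled TPM, 6650 of the 16490 transcripts with enough signal to test (40.3%) passed limma's test at an adjusted p of 0.05, 3430 higher (20.8%) and 3220 lower (19.5%) at 12 h. In deposited TPM nearly the same number passed, 6670 (40.4%), but only 1711 were higher (10.4%) and 4959 lower (30.1%). Most changes were moderate. In scaled TPM 1686 rises and 1239 falls reached 2-fold, and 33 rises and 75 falls reached 4-fold. In deposited TPM those numbers were 432 and 2903 at 2-fold and 10 and 178 at 4-fold. The share of rises among the calls thus depended on the scaling. The small excess of rises in scaled TPM also turned with scale factors from the 9 libraries alone (3234 higher and 3403 lower), with factors from transcripts of at least 10 TPM (3235 and 3389) and with a pseudocount of 0.1 (3193 and 3266). Going to deposited TPM moved the log2 fold change by a median of -0.37.

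Fewer transcripts were called in either scaling once 12 h replicate 3 was left out. In scaled TPM 4425 transcripts passed (26.8%), 2181 higher (13.2%) and 2244 lower (13.6%). In deposited TPM 4247 passed (25.8%), 946 higher (5.74%) and 3301 lower (20.0%). Leaving out replicate 1 or replicate 2 instead gave 5600 and 6189 calls in scaled TPM. The balance of rises and falls moved little with the library, 51.6% of calls being rises with all libraries and 49.3% without replicate 3, and much with the scaling, 25.7% with deposited TPM.

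**Figure D2:**
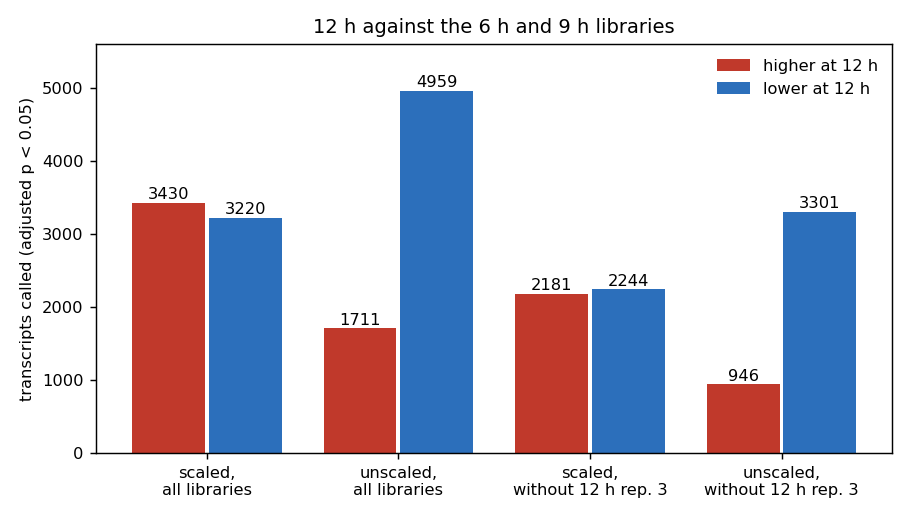
Number of transcripts called higher (red) and lower (blue) at 12 h than in the 6 h and 9 h libraries by limma at an adjusted p under 0.05, with scaled and unscaled (deposited) TPM, with all libraries and without 12 h replicate 3. The 4 pairs of bars read 3430 and 3220, 1711 and 4959, 2181 and 2244, and 946 and 3301.

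All 1711 rises in deposited TPM were also rises in scaled TPM, and all 3220 falls in scaled TPM were also falls in deposited TPM. Because the scale factors of all 3 libraries of 12 h were lower, going to deposited TPM lowers fold changes, so this nesting was largely fixed by the scaling and is no sign of stability. A set of 893 transcripts (5.42%) was higher and a set of 2155 (13.1%) lower at 12 h in all 4 settings. The nesting shaped both sets. With and without 12 h replicate 3, 893 transcripts were called higher in deposited TPM and 2114 in scaled TPM. In scaled TPM 2156 were called lower both times, and in deposited TPM 3263. The unequal sizes of the 2 sets thus depended on the scaling. The risen and fallen sets came from 892 and 2143 loci. The median log2 fold change of the risen set was 1.26 in scaled and 0.85 in deposited TPM, and that of the fallen set -0.99 and -1.35. Together the 893 risen transcripts held 32.8% ± 3.74 of all TPM at 12 h (SD, n = 3) and 19.2% ± 1.86 at 6 h and 9 h (SD, n = 6). The 2155 fallen ones held 7.34% ± 1.21 at 12 h (SD, n = 3) and 18.5% ± 3.04 at 6 h and 9 h (SD, n = 6). These shares describe sets that were chosen on the same libraries.

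By the rule for named transcripts, a transcript had to be called the same way in all 4 settings, reach a mean of 5 scaled TPM in the higher group and show no overlap of the 3 with the 6 libraries in either scaling. The rule left 802 rises and 1740 falls, drawn from the 2 sets above, whose unequal sizes depended on the scaling. Without regard to calls, the 3 libraries lay above all 6 for 3081 transcripts in scaled TPM (18.7%) and 1600 in deposited TPM (9.70%), and below all 6 for 2643 (16.0%) and 4222 (25.6%). The 2 largest in each direction by fold change and the 2 largest by difference in deposited TPM follow, and their lack of overlap was fixed by the choice.

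The largest rise by fold was that of BV898_19597.t01, a transcript of low level. It was at 7.60, 11.4 and 9.53 deposited TPM in 12 h replicates 1, 2 and 3, against a lowest value of 0, a median of 0.280 and a highest of 3.45 in the 6 h and 9 h libraries. Limma gave it a scaled log2 fold change of 2.96 ± 0.49 (SE; adjusted p = 0.000564), and 2.84 without 12 h replicate 3 (limma, adjusted p = 0.00699). BV898_19596.t01, the next in size, was at 12.7, 19.6 and 17.1 TPM at 12 h, against 0.980 to 7.35 (median 2.12) at 6 h and 9 h. Limma gave it a scaled log2 fold change of 2.65 ± 0.43 (SE; adjusted p = 0.000564). The order and size of these 2 rises depended on the pseudocount. With a pseudocount of 5 the values of BV898_19597.t01 and BV898_19596.t01 were 1.53 and 1.74, and with 0.1 they were 4.87 and 3.11. The identifiers of these 2 transcripts are consecutive numbers. If their sequences are alike they could share reads, which could not be checked here.

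Levels of both transcripts over the whole course were as follows. BV898_19596.t01 was listed at 0 in all 3 controls and all 3 libraries of 0 h, and averaged 14.4 ± 4.64 TPM in the 1 h pools, 7.56 ± 0.928 in those of 3 h and 17.0 ± 13.6 in those of 24 h (SD, n = 3 each). BV898_19597.t01 averaged 4.27 ± 1.47 TPM in the 1 h pools, 5.03 ± 1.72 in those of 3 h and 5.34 ± 3.22 in those of 24 h (SD, n = 3 each). The 12 h level of BV898_19597.t01 was thus the highest group mean of the series, whereas that of BV898_19596.t01 lay within the spread of the 24 h libraries.

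The largest fall by fold was that of BV898_00015.t01, listed at 0 in 12 h replicates 1 and 3 and at 5.81 TPM in replicate 2. In the 6 h and 9 h libraries it ranged from 11.1 to 132 TPM with a median of 55.6. Limma gave this transcript a scaled log2 fold change of -4.49 ± 1.01 (SE; adjusted p = 0.00211). Its size depended on the pseudocount and was -2.91 with 5 and -6.72 with 0.1. BV898_19378.t01 was at 4.01 TPM in 12 h replicate 1 and listed at 0 in replicates 2 and 3, against 15.9 to 40.2 (median 29.5) at 6 h and 9 h. Limma gave it a scaled log2 fold change of -3.87 ± 0.92 (SE; adjusted p = 0.00286). With TPM summed over its locus the fall was smaller, -2.39 (limma, adjusted p = 0.00267). In the control BV898_19378.t01 averaged 8.19 ± 5.27 TPM (SD, n = 3), below the range of the 6 h and 9 h libraries. In the control BV898_00015.t01 averaged 119 ± 37.8 TPM (SD, n = 3), within the range of the 6 h and 9 h libraries. Low values of both transcripts also occurred outside 12 h. BV898_00015.t01 was at 77.1, 6.69 and 0 TPM in 0 h replicates 1, 2 and 3, and at 3.58, 20.8 and 2.97 in those of 24 h. BV898_19378.t01 was at 0, 38.2 and 70.8 TPM in 3 h replicates 1, 2 and 3.

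The largest changes in TPM were those of very abundant transcripts. The largest gain was that of BV898_16263.t01, at 21496.5, 16468 and 20753 deposited TPM in 12 h replicates 1, 2 and 3, against 8092 to 14179 (median 11172) at 6 h and 9 h. Limma gave a log2 fold change of 1.22 ± 0.23 in scaled TPM (SE; adjusted p = 0.000685) and 0.81 in deposited TPM (adjusted p = 0.00149). BV898_16259.t01 was at 19616, 19251 and 21366 TPM at 12 h, against 11415 to 15988 (median 13153) at 6 h and 9 h. Limma gave a log2 fold change of 0.99 ± 0.21 in scaled TPM (SE; adjusted p = 0.00123) and 0.58 in deposited TPM (adjusted p = 0.00569). The call of BV898_16259.t01 was lost with quantile normalization, where its log2 fold change was 0.43 (limma, adjusted p = 0.0744).

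These 2 transcripts, whose numbers also lie close together, had different courses before 12 h. BV898_16263.t01 averaged 20791 ± 1823 TPM in the 0 h pools, 11860 ± 567 in those of 1 h, 17485 ± 3502 in those of 3 h and 8682 ± 2578 in those of 24 h (SD, n = 3 each). Its 12 h level of 19572 ± 2714 (SD, n = 3) was therefore close to that at the end of the exposure in deposited TPM. In scaled TPM it was higher, 25086 ± 5989 at 12 h against 19180 ± 1401 at 0 h (SD, n = 3 each). BV898_16259.t01 averaged 8025 ± 976 TPM in the 0 h pools, 12520 ± 1561 in those of 1 h, 8621 ± 2222 in those of 3 h and 11885 ± 2444 in those of 24 h (SD, n = 3 each), so that 12 h, with 20078 ± 1131 TPM (SD, n = 3), gave the highest mean of any group.

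The largest losses in TPM among transcripts meeting the rule were those of BV898_03848.t01 and BV898_02877.t01. BV898_03848.t01 was at 1758, 2735 and 1658.5 TPM at 12 h, against 3721 to 7429 (median 5726) at 6 h and 9 h, and its scaled log2 fold change was -1.05 ± 0.25 (SE; limma, adjusted p = 0.00242). BV898_02877.t01 was at 997, 1536 and 914 TPM at 12 h, against 2110 to 4767 (median 3003), and its scaled log2 fold change was -1.06 ± 0.26 (SE; limma, adjusted p = 0.00335). Both had their highest group mean in the control, 8148 ± 1578 and 6283 ± 1579 TPM, and were at 3349 ± 1354 and 1834 ± 794 TPM at 24 h (SD, n = 3 each). In both, the 12 h mean was the lowest of the 8 groups.

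**Figure D3:**
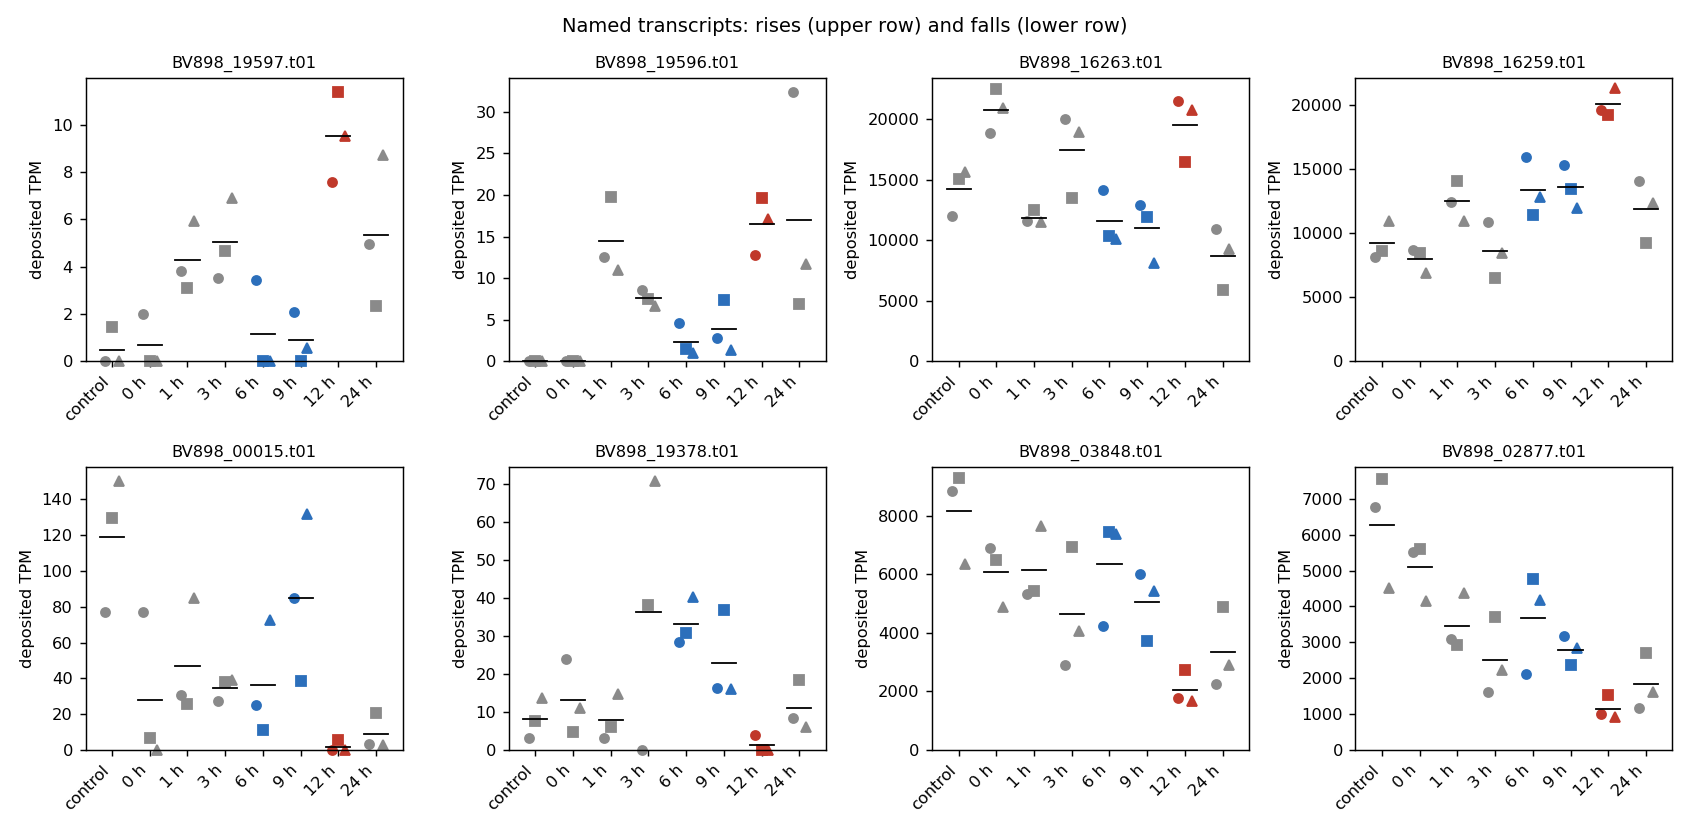
Deposited TPM of the 8 named transcripts in each library, by group in order of time, with rises in the upper row and falls in the lower row. Circles, squares and triangles are replicates 1, 2 and 3, lines are group means, 12 h is red and 6 h and 9 h are blue. In every panel the 3 libraries of 12 h lie outside the range of the 6 libraries of 6 h and 9 h, as the rule required.

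Locus BV898_14257, which the naming rule includes whatever its value, was at 141.5, 109 and 145 deposited TPM in 12 h replicates 1, 2 and 3, against 74.4 to 116 (median 94.4) at 6 h and 9 h. Replicate 2 of 12 h lay within the range of the earlier libraries. Limma gave a log2 fold change of 0.87 ± 0.27 in scaled TPM (SE; adjusted p = 0.0131), but 0.46 in deposited TPM (limma, adjusted p = 0.144) and 0.67 in scaled TPM without 12 h replicate 3 (limma, adjusted p = 0.103). Against 6 h alone it was 1.09 and against 9 h alone 0.65 (limma, adjusted p = 0.00861 and 0.111). Leaving out any other single library of the 9 kept the call in scaled TPM (limma, adjusted p = 0.0108 to 0.0360). The call of a rise at this locus thus rested on the scaling, on 12 h replicate 3 and on the 6 h libraries.

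The change was spread over many transcripts. Between the mean 12 h library and the mean of the 6 h and 9 h libraries, 22.2% of all TPM was held by other transcripts, against 7.35% between the means of 9 h and 6 h. The 10 largest gains made up 15.7% of the TPM gained and the 100 largest 44.6%. Losses were spread more widely, with 13.5% in the 10 largest and 34.1% in the 100 largest. Between single libraries, 15.6% to 33.1% of TPM differed in the 18 pairs of a 12 h with an earlier library, against 7.21% to 13.2% in the 15 pairs among the 6 h and 9 h libraries and 10.6% to 14.6% in the 3 pairs within 12 h. The ranges did not overlap, and no scale factor enters this measure.

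The 3 libraries of 12 h stood at different distances from the earlier ones. The median share of TPM that differed from the 6 h and 9 h libraries was 21.7% for replicate 1, 19.8% for replicate 2 and 29.5% for replicate 3. To see each 12 h library in values that had not chosen the transcripts, lists were drawn from the other 12 h libraries against 6 h and read in the remaining library against the 9 h mean. In scaled TPM, transcripts listed as higher had a median log2 difference from 9 h of 0.73 in replicate 1, 0.66 in replicate 2 and 1.23 in replicate 3, and those listed as lower of -0.78, -0.63 and -0.88. Over all 16490 transcripts the medians were -0.02, 0.00 and 0.00. Each library showed the listed direction for most of each list, 93.9% to 96.7% of the higher and 89.3% to 95.3% of the lower transcripts. Of all transcripts, 47.7%, 49.6% and 49.0% lay above the 9 h mean in replicates 1, 2 and 3.

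In deposited TPM the same reading gave replicate 3 the largest medians in size for both lists, and also for all transcripts. The lists of higher transcripts had medians of 0.58, 0.51 and 0.79 in replicates 1, 2 and 3, and the lists of lower ones of -0.85, -0.78 and -1.37, where all transcripts had -0.22, -0.20 and -0.45. Replicate 3 thus moved in the same direction as the other two and further in both scalings, each library being read in its own lists. Its low scale factor of 0.664 and its largest share of TPM in the 100 most abundant transcripts, 32.5%, went with this, and their part in the larger shift was not tested.

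Taken against each earlier time alone, 12 h gave more calls against 6 h than against 9 h, a difference between counts that was not tested. Against 6 h, 6024 transcripts were called in scaled TPM (36.5%), 3149 higher and 2875 lower, and 6047 in deposited TPM (36.7%), 1536 higher and 4511 lower. Against 9 h, 4385 were called in scaled TPM (26.6%), 2369 higher and 2016 lower, and 4828 in deposited TPM (29.3%), 1016 higher and 3812 lower. Between 9 h and 6 h limma called 0 transcripts in either scaling (0.00%), with 665 at an unadjusted p under 0.05 in scaled TPM and 671 in deposited TPM. A count of 0 does not show that both times were alike.

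The count against 9 h depended strongly on single libraries, though leaving 1 out also leaves fewer libraries in a group. Without 12 h replicate 3 it was 920 in scaled TPM (5.58%) and 1732 in deposited TPM (10.5%), whereas the count against 6 h was 4063 (24.6%) and 3851 (23.4%). Leaving out 9 h replicate 1 gave 2394 and leaving out 9 h replicate 3 gave 1918. Against 6 h the count was 3880 when 6 h replicate 2 was left out. Numbers at an unadjusted limma p under 0.05 changed less. Without 12 h replicate 3 those against 9 h went from 6563 to 5167 in scaled TPM and from 6676 to 5105 in deposited TPM. Medians of log2 fold change over all transcripts stayed near 0 in scaled TPM, at -0.02 against 6 h and 0.00 against 9 h, and were -0.32 and -0.29 in deposited TPM.

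Abundant transcripts were called more often, and their median direction depended on the scaling and on how abundance was defined. Grouped by mean deposited TPM over the 24 libraries, 61.3% of the 137 transcripts at 1000 TPM or more were higher and 13.9% lower at 12 h in scaled TPM, with a median log2 fold change of 0.69. Of the 5952 transcripts between 10 and 50 TPM, 24.6% were higher and 27.4% lower, with a median of -0.07. Below 2 TPM, 4.37% of 3067 were higher and 3.72% lower. In deposited TPM the medians were 0.28 at 1000 TPM or more and -0.45 between 10 and 50 TPM. Without 12 h replicate 3 the median at 1000 TPM or more was 0.61 in scaled and 0.32 in deposited TPM.

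The 24 libraries include those of 12 h, so transcripts that rose there were more likely to be placed in the highest class. Grouped by their mean over the 3 control libraries, which take no part in the comparison, 109 transcripts were at 1000 TPM or more. Of these, 42.2% were higher and 30.3% lower at 12 h in scaled TPM, and their median log2 fold change was 0.16 in scaled and -0.25 in deposited TPM. Transcripts at 50 to 200 TPM in the control had the lowest medians, -0.17 in scaled and -0.57 in deposited TPM. In deposited TPM the median of the highest class was then lower than that of the class below 2 TPM, -0.12. It was about level with the classes of 2 to 10 TPM, -0.26, and 200 to 1000 TPM, -0.30. Between 10 and 50 TPM the median was lower, -0.44.

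**Figure D4:**
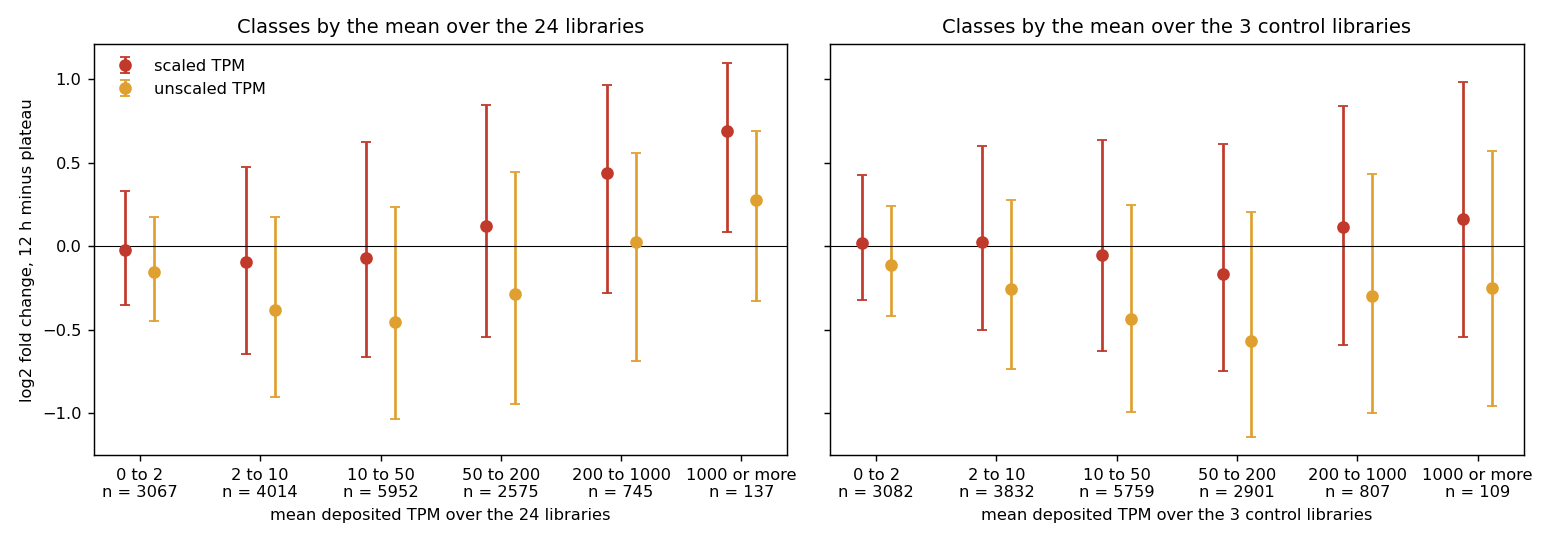
Median log2 fold change at 12 h against the 6 h and 9 h libraries, with quartiles as bars, for classes of transcripts by mean deposited TPM over the 24 libraries (left) and over the 3 control libraries (right), in scaled (red) and unscaled (yellow) TPM, with n transcripts in each class. The median of the highest class in scaled TPM is 0.69 on the left and 0.16 on the right.

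The transcripts of the shift were then followed in libraries that had not chosen them. Lists were drawn from 12 h against 6 h and read between other groups. At 24 h against 9 h, 832 of the 3149 transcripts listed as higher (26.4%) were called higher and 80 (2.54%) lower, where 12.6% and 9.89% of all transcripts tested were. Of the 2875 listed as lower, 772 (26.9%) were called lower and 45 (1.57%) higher. The median log2 fold changes at 24 h against 9 h were 0.41 for the list of higher transcripts, -0.48 for the list of lower ones and 0.03 for all. In deposited TPM the medians were 0.31, -0.53 and -0.07, and 21.2% of the first list were called higher and 26.8% of the second lower, where 9.04% and 11.6% of all transcripts were. Without 12 h replicate 3 in the choice of the lists they were 0.45 and -0.56 in scaled TPM, so these values did not rest on that library.

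The 24 h libraries were not alike in this reading. Against the 9 h mean in scaled TPM, the list of higher transcripts had medians of 0.66, -0.10 and 0.70 in 24 h replicates 1, 2 and 3, and the list of lower ones of -0.82, -0.05 and -0.57, where all transcripts had 0.01, 0.00 and 0.02. In deposited TPM the medians of replicate 2 were -0.12 and 0.02, where all transcripts had 0.04. Replicates 1 and 3 of 24 h were thus on the side to which the lists had moved at 12 h, and replicate 2 was near the 9 h level. Without 24 h replicate 2, limma called 1427 of the list of higher transcripts higher (45.3%, against 15.4% of all transcripts) and 1221 of the other list lower (42.5%, against 13.1%). Without replicate 1 the counts were 541 (17.2%, against 9.59% of all transcripts) and 363 (12.6%, against 6.23%). Without replicate 3 they were 450 (14.3%, against 7.59%) and 435 (15.1%, against 5.96%).

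The same lists already differed from the control at 9 h, before the shift. At 9 h against control, 1017 of the transcripts listed as higher at 12 h (32.3%) were called higher and 132 (4.19%) lower, where 13.1% and 11.5% of all transcripts were. Of those listed as lower, 886 (30.8%) were called lower and 141 (4.90%) higher. The medians were 0.43 and -0.50 against -0.01 over all transcripts in scaled TPM, and 0.38 and -0.54 against -0.14 in deposited TPM, where 35.0% of the first list were called higher and 30.5% of the second lower beside 10.7% and 14.7% of all transcripts. At 9 h against 0 h the medians in scaled TPM were 0.19 and -0.26, and 20.6% of the first list were called higher and 18.5% of the second lower, where 13.5% and 11.1% of all transcripts were.

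Fewer transcripts of the lists were called against 1 h and 3 h. At 9 h against 1 h their medians were 0.19 and -0.22, and 4.32% of the first list were called higher and 1.74% of the second lower, where 2.04% and 0.940% of all transcripts were. At 9 h against 3 h the medians were on the opposite side, -0.05 and 0.15. Of the first list 0.508% were then called higher and 0.857% lower, and of the second 0.452% higher and 0.417% lower, where 0.473% and 0.655% of all transcripts were. These comparisons share the 9 h libraries and so are not independent of each other. The lists also hold transcripts of higher level, with median mean TPM of 41.1 and 26.3 against 14.0 over all transcripts, and abundant transcripts were called more often in the comparison of 12 h with 6 h and 9 h as well.

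As shares of all TPM, the sets called in all 4 settings showed the shift library by library. The risen set held 31.6%, 29.9% and 37.0% in 12 h replicates 1, 2 and 3, and 17.1% to 21.1% in the 6 h and 9 h libraries. At 24 h it held 28.7%, 17.4% and 28.3% in replicates 1, 2 and 3. The fallen set held 7.60%, 8.40% and 6.02% at 12 h, 15.0% to 22.1% at 6 h and 9 h, and 7.81%, 15.7% and 8.79% at 24 h. Replicate 2 of 24 h thus lay with the 6 h and 9 h libraries in both sets, and replicates 1 and 3 of 24 h near those of 12 h. At 3 h the risen set held 23.3%, 16.8% and 21.6% in replicates 1, 2 and 3, and the fallen set 13.4%, 21.1% and 14.5%. Replicates 1 and 3 of 3 h thus lay outside the range of the 6 h and 9 h libraries, on the side of 12 h. The risen set held 18.4% to 21.3% at 0 h and 16.3% to 19.0% at 1 h. The fallen set held 16.7% to 21.1% at 0 h and 17.8% to 21.8% at 1 h. In the control the risen set held 14.7% to 17.1% and the fallen set 20.1% to 26.3%. The order of 12 h against 6 h and 9 h in these shares was set by the choice of the sets.

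**Figure D5:**
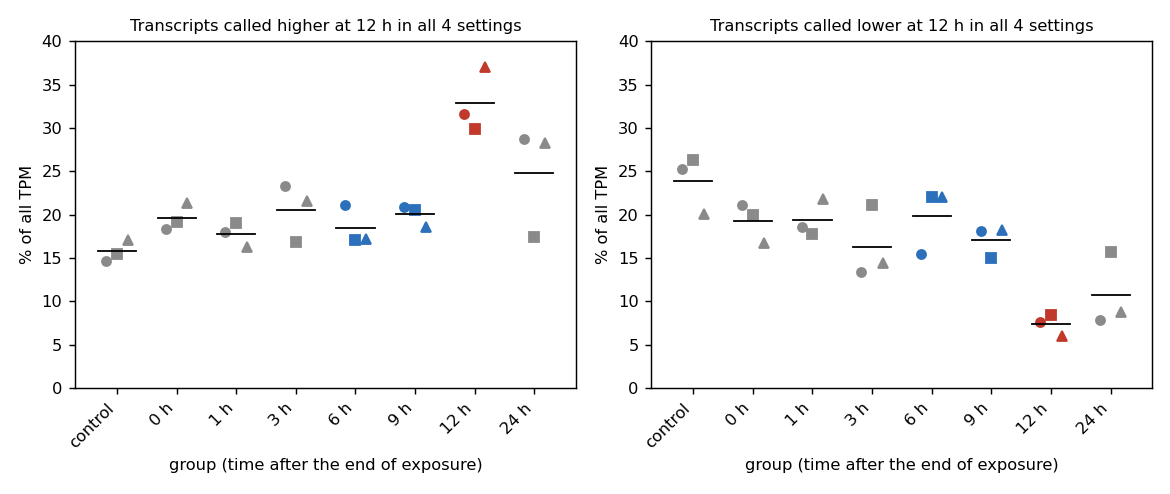
Percent of all deposited TPM held by the 893 transcripts called higher (left) and the 2155 called lower (right) at 12 h in all 4 settings, in each library by group in order of time. Circles, squares and triangles are replicates 1, 2 and 3, lines are group means, 12 h is red and 6 h and 9 h are blue. The sets were chosen on the red and blue libraries; at 24 h, replicate 2 (square) lies apart from replicates 1 and 3 in both.

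Disappearance and appearance were rare. At 12 h 7 transcripts were listed at 0 in all 3 libraries while at 1 TPM or more in all 6 earlier ones, none of them above 15.0 TPM, and 0 transcripts showed the reverse. In all, 2964 transcripts were listed at 0 in all 3 libraries of 12 h and 1941 in all 6 of 6 h and 9 h. The 2 directions are unlike, since one needs a 0 in 3 libraries and the reverse in 6. Opposite calls between isoforms of a locus need at least 2 called isoforms, and loci with these were not counted. Of 620 loci with at least 2 isoforms tested, 264 had a call in scaled TPM, and 5 of these had isoforms called in opposite directions: BV898_02715, BV898_04639, BV898_13100, BV898_16232 and BV898_16889, which are named because of this count, after their values were seen. Only at BV898_04639 did the opposite calls hold in all 4 settings. Its transcript t01 was at 73.0, 68.8 and 47.1 TPM at 12 h, against 102 to 173 TPM at 6 h and 9 h. Its transcript t02 was at 2.86, 1.29 and 0 TPM at 12 h and listed at 0 in all 6 earlier libraries. Outside 12 h, t02 was above 0 only in 24 h replicate 1, at 2.8 TPM. It was thus tested only because of the 12 h libraries and this one. The settings without 12 h replicate 3 also drop its 12 h value of 0, so a call of t02 in all 4 settings is no sign of stability. Reads that isoforms share are divided by estimation, so values of single isoforms are uncertain.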

How the data were processed

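The authors deposited TPM per transcript in 1 table for the series, each column summing to the same total. RSEM 1.2.26, DESeq2 1.22.2, FastQC 0.11.3 and Bowtie2 2.2.9 are named, without roles, per the submitters' processing notes. For the genome build, and likewise for the annotation, the entry is: not given in the sources used here. Columns were matched to samples by the submitters' descriptions, and groups and replicate numbers come from the titles. TPM holds no counts, so depth is unknown and no counting error can be given.

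Scale factors were medians of ratios to the geometric mean over 12190 transcripts above 0 in all 24 libraries, and a transcript was tested if 3 or more libraries had 1 TPM or more (16490 of 20853). Both were kept when a library was left out. With limma 3.58.1 (R 4.3.3), log2(TPM + 1) was fitted over all 24 libraries with 1 mean per group, 6 h and 9 h forming 1 group (7 groups). The moderated test (eBayes, trend and robust) was two-sided with Benjamini-Hochberg adjustment over all transcripts and a threshold of 0.05. For 12 h against 6 h, 12 h against 9 h and comparisons of other times, the 8 groups were kept apart. Single values per library were compared by exact permutation of the difference of means. The procedure was tested on simulated data. These had the same spread for all transcripts and no difference in scale factor, so that test does not bear on the choice of scaling. Named transcripts are the 2 largest rises and falls by log2 fold change and by difference in TPM under the rule given above, and locus BV898_14257. Lists of genes by product name and tissue could not be matched, since the table pairs no identifier with a name. The comparison, lists and tests were chosen with earlier results of these data known. Plots used Python 3.11.15 and matplotlib 3.10.9.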

Additional observations from a re-analysis of the deposited data

How the results depend on the processing

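The number of transcripts called at 12 h against 6 h and 9 h was 6650, 3430 higher and 3220 lower. It stayed within 1.5 times of that with other scalings, pseudocounts and filters, with the 9 libraries alone, with 6 h and 9 h as separate groups, with quality weights (5994) and with TPM summed per locus. Requiring a 2-fold change as well left 2925. With unscaled TPM 1711 were higher and 4959 lower, and without 12 h replicate 3 as well 4247 were called, 946 of them higher. With quantile normalization 47.3% of calls were rises, and 1 transcript, BV898_04922.t01, was called the opposite way. Leaving out 1 library gave 4425 to 6590 calls, 2181 to 3437 higher and 2244 to 3154 lower, the lowest each time without 12 h replicate 3. Without the 3 libraries of 6 h, added after seeing the data, 4114 were called, 2263 higher and 1851 lower, and without those of 9 h 5793. Leaving out 1 library gave 3880 to 6037 calls for 12 h against 6 h, 920 to 4408 for 12 h against 9 h and 0 to 1 for 9 h against 6 h. Unscaled and without 12 h replicate 3, the first 2 were 3851 and 1732. For 9 h against 6 h 1 transcript was called with quality weights (BV898_02938.t01) and 1 without 6 h replicate 1 (BV898_19374.t02). For the 10 most abundant transcripts the difference in share was 1.02 percentage points (exact permutation test, p = 0.0714).

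With a replicate block 6714 transcripts were called at 12 h, and no call of a named transcript changed. No sign was seen that the replicate number pairs the libraries of 6 h, 9 h and 12 h. Deviations of same-numbered libraries had correlations of -0.14 to 0.14, against -0.14 to 0.18 for different numbers. So few libraries cannot exclude a pairing. The call of BV898_14257 was also lost with quantile normalization (log2 fold change 0.52, limma adjusted p = 0.114). Where no cause is given, the cause was not tested. The reading of each 24 h library was added after seeing the data. TPM without depth limits every statement on transcripts listed at 0.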
